A study of Mus musculus with 36 samples.

Results

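Mature medullary thymic epithelial cells and thymic dendritic cells (DC) were compared on the arrays whose titles name them. The epithelial cells were sorted as CD80 hi and MHC-II hi and are called mTEChi here, and the DC were sorted as Sirpa- and Sirpa+ populations. The comparison rests on 18 of 36 arrays, 6 of mTEChi and 12 of DC, of which 6 were Sirpa- and 6 Sirpa+. All cells came from thymi of male wild-type C57BL/6J mice aged 1, 3 or 6 months, with 2 arrays per population and age, and no treatment or engineered allele is named. The other 18 arrays held cortical epithelium (cTEC), medullary epithelium low for both sort proteins (mTEClo) and fibroblasts, and served as the level outside both partners. The labels name 1 mouse for each sample while the design text speaks of 2 mice per age, so arrays of an age may share animals, and p-values measure only the spread between these samples.

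Self tolerance in the thymic medulla depends on the display of self peptides to developing T cells. mTEChi make tissue antigens themselves, driven in part by the regulators Aire and Fezf2, and present them on MHC class II. DC arise from blood-forming cells, take antigen up from their surroundings, including antigen made by mTEChi, and present it again. Both cell types can delete self-reactive thymocytes or steer them to the regulatory T cell fate, which needs MHC molecules, costimulatory ligands and chemokines that bring the cells together. Sirpa- thymic DC are known as the cross-presenting type that carries Xcr1, and Sirpa+ DC as a type that can enter from the blood.

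The promoters of 9 genes described here are shown as examples, and each holds a match to the letters marked in it. They do not show how common such matches are among genes of a like pattern. Of 118 promoters of genes shared by both partners, 5 held the NF-kB type and 9 the PU.1 type letters. H2-Aa and H2-Eb1 encode chains of MHC class II, Ebi3, Ncf1, Kmo and Tm4sf5 were above all other arrays in both partners, Cxcl9 encodes a chemokine called in the contrast that sets both partners against the other populations, Havcr2 was high in DC and Olfm4 in mTEChi. Each line holds the 160 bases before the RefSeq transcription start, on the gene's own strand in build GRCm38.p6. Capitals mark CCAAT (the core of the Y box of class II promoters) in the first pair, an NF-kB type match (GGG at one end, CC at the other and TT between them, with any base elsewhere) in Ebi3, Ncf1, Cxcl9 and Olfm4, and a PU.1 type match to GAGGAAGT in Kmo, Tm4sf5 and Havcr2, on either strand.
H2-Aa (chr17:34287824-34287983, minus strand): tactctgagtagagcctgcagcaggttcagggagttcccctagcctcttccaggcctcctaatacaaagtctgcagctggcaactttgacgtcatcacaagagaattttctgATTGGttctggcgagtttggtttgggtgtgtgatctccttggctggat
H2-Eb1 (chr17:34305707-34305866, plus strand): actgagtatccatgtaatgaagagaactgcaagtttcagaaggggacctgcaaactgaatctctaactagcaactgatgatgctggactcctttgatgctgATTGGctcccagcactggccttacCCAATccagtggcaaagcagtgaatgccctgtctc
Ebi3 (chr17:55952463-55952622, plus strand): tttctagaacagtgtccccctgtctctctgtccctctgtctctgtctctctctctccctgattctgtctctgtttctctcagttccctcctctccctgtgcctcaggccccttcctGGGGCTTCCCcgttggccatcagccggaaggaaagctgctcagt
Ncf1 (chr5:134229626-134229785, minus strand): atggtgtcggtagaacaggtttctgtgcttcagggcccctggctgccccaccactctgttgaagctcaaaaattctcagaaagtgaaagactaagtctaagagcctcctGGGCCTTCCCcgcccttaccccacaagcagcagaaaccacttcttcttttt
Cxcl9 (chr5:92328080-92328239, minus strand): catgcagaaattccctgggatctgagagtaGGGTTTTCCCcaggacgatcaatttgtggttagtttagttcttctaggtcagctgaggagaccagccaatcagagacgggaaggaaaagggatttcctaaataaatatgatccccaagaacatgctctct
Kmo (chr1:175632033-175632192, plus strand): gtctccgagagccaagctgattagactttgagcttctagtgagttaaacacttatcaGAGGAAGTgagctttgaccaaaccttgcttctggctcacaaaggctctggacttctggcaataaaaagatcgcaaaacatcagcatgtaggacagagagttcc
Tm4sf5 (chr11:70505114-70505273, plus strand): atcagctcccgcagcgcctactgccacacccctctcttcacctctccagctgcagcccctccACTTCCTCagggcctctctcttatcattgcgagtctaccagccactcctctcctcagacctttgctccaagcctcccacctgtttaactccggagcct
Havcr2 (chr11:46454771-46454930, plus strand): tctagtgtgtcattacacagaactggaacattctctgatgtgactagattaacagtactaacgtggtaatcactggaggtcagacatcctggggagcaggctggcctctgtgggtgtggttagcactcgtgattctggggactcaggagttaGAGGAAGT
Olfm4 (chr14:80000142-80000301, plus strand): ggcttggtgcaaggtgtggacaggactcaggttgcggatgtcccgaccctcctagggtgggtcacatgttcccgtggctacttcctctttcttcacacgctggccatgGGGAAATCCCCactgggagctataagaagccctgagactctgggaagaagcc
In Olfm4 the capitals cover 2 overlapping matches, both of them on the strand opposite to the one printed. Each promoter is marked for 1 type of match only, so the capitals do not show how the types divide between partners. Left in lower case are a PU.1 type match in Olfm4 (81 bases before the start), an NF-kB type match in H2-Aa (131) and CCAAT in Cxcl9 (65). Over 250 bases before the start, CCAAT was held by 33.8% of all 32851 RefSeq mouse promoters and by 6 of 7 promoters of the MHC class II genes searched. The PU.1 type letters were in 2.44% of all promoters, in 7.63% of 118 promoters of the genes shared by both partners, in 5.06% of promoters of genes called higher in DC and in 2.09% of those called higher in mTEChi. The NF-kB type letters were in 4.11%, 4.24%, 4.99% and 5.63% of the same sets. These shares describe letters in a window and say nothing on binding. Promoters were in the table for 96 of the 122 shared genes.

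Values are log2 signals per probe set, so a difference of 1 is 2-fold. Genes with an adjusted p below 0.05 (limma, Benjamini-Hochberg over 14495 genes) and a difference of at least 2-fold were called, and arrays of groups were said not to overlap where every array of one group lay above every array of the other.

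The sort labels were checked first. Aire, the regulator of tissue antigen expression, had 10.67, 11.09 and 11.97 as lowest, median and highest log2 signal in mTEChi, and 6.01, 6.35 and 7.05 in DC. Itgax, the gene of the DC integrin CD11c, had 5.71, 5.80 and 6.22 in mTEChi and 10.42, 10.91 and 11.57 in DC. Neither gene overlapped between the partners, and Aire was 27.2-fold higher (log2 difference 4.76 ± 0.13 SE, adjusted p = 3.33e-20) and Itgax 33.0-fold lower (-5.05 ± 0.12, adjusted p = 1.61e-21) in mTEChi. Itgax in mTEChi overlapped with the 18 other arrays, which lay at 5.08 to 5.97. The epithelial regulator Foxn1 had 9.16 to 10.01 in mTEChi and 3.63 to 4.48 in DC, and the DC genes Flt3 and Zbtb46 did not overlap in the other direction.

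Some libraries and marker lists stood apart within the labels. Genes with a log2 signal above 7 numbered 8381 in 1 of the 6-month mTEChi arrays (array 2) against 8612 to 8735 in the other 5. The other 6-month mTEChi array (array 1) had the highest mTEChi level of Ptprc, the pan-leukocyte gene CD45, at 9.76 against 8.19 to 8.80, and of Flt3 at 8.50. Without array 1, 4041 genes were called between mTEChi and DC, and without array 2, 3873 were called, against 3947 with all arrays. The mean of 11 macrophage markers was 7.27 to 7.71 in mTEChi, 6.93 to 8.62 in Sirpa- DC, 9.60 to 10.51 in Sirpa+ DC and 6.08 to 6.51 in cTEC and mTEClo, and the mean of 13 thymocyte markers was 5.65 to 6.22 in mTEChi, 6.12 to 7.32 in Sirpa- DC and 6.85 to 7.91 in Sirpa+ DC. In mTEChi 8 of 11 macrophage markers and 8 of 13 thymocyte markers were called lower than in DC, and none higher. These shares were 72.7% and 61.5%, against 8.98% called lower over all genes tested. Of 9 B cell markers, 3 were called above their DC level in mTEChi and 1 below it, and of 10 fibroblast markers 4 were called above it, with means of 6.80 to 6.93 in mTEChi, 5.23 to 6.18 in DC and 9.10 to 12.43 in fibroblasts. Of other lists, pDC markers gave 2 higher and 3 lower of 9, tuft cell markers 3 and 1 of 9, endothelial markers 1 and 1 of 7 and erythroid markers 2 and 0 of 4. Carry-over of RNA from such cells was not tested, and in bulk samples fewer cells of a type and less RNA per cell cannot be told apart.

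mTEChi and DC differed in 3947 of 14495 genes (27.2%), with 2645 higher in mTEChi (18.2%) and 1302 lower (8.98%). Groups of arrays did not overlap for 2376 of the higher genes (16.4% of those tested) and 1021 of the lower (7.04%). For 9287 genes (64.1%) the 95% interval of the difference lay within 2-fold. Against Sirpa- DC alone 4137 genes were called (28.5%) and against Sirpa+ DC alone 3886 (26.8%). The first principal component of the 18 arrays, which held 76.08% of the variance, set mTEChi apart from both DC populations, and the second, with 8.762%, set the DC populations apart from each other.

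More genes were detected in mTEChi than in DC. An mTEChi array had 8615.8 ± 126.9 genes above a log2 signal of 7 (SD, n = 6) and a DC array 7862.5 ± 133.7 (SD, n = 12). The lowest mTEChi array, at 8381, lay above the highest DC array, at 8026. So did all arrays of cTEC (8159 to 8541) and mTEClo (8217 to 8563), which overlapped with mTEChi. The difference of 753.3 genes had an exact permutation p of 5.39e-05 (two-sided, 18564 regroupings), the smallest the design allows. At a threshold of 8 the difference was 199.1 genes (exact permutation p = 0.011), and at 6 it was 1158.9, so its size follows the threshold chosen.

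**Figure D1:**
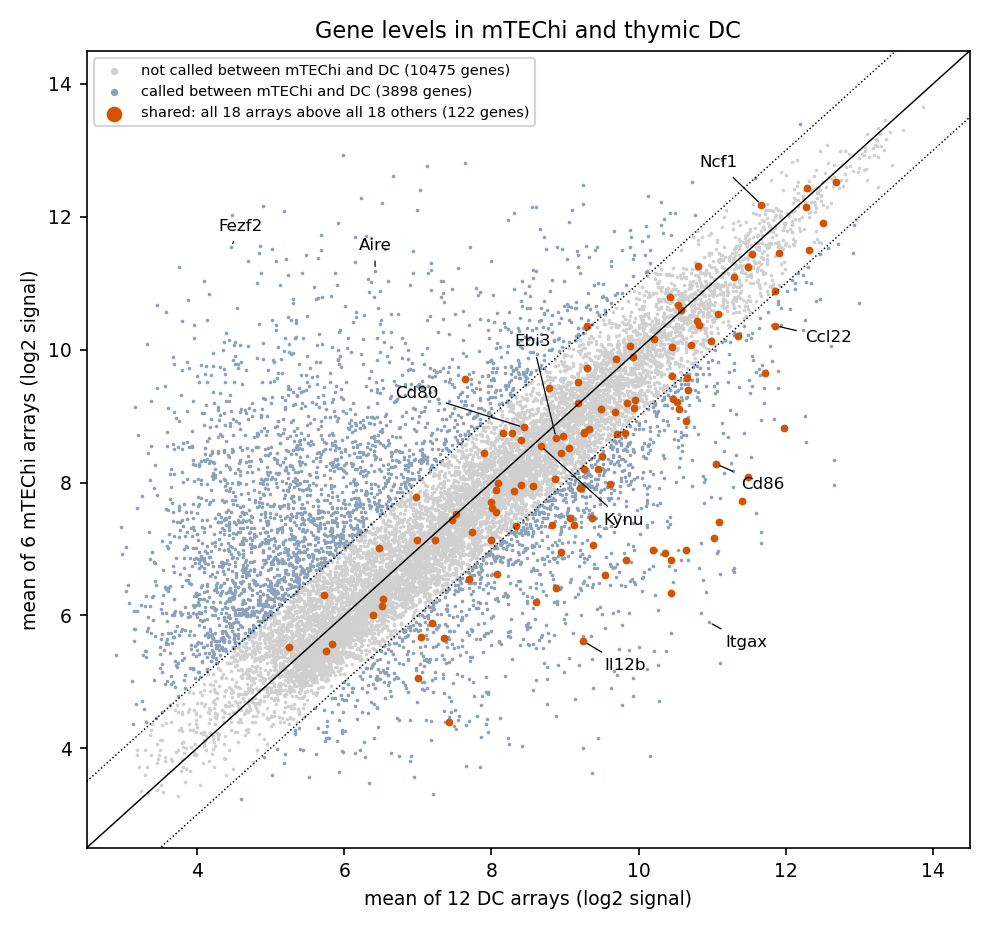
Mean log2 signal of each tested gene in the 12 DC arrays (x axis) and the 6 mTEChi arrays (y axis), with dotted lines at 2-fold. Orange points are the 122 genes with all 18 arrays of both partners above all 18 other arrays, and many of them lie on or below the diagonal.

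The contrast of both partners against the mean of cTEC, mTEClo and fibroblasts called 2468 genes (17.0%), 1235 of them higher in the partners (8.52%) and 1233 lower (8.51%). It averages the partners, so a gene high in only 1 of them can also be called. For 122 of the higher genes (0.842%) all 18 arrays of mTEChi and DC lay above all 18 others, and these are called shared. Their folds in that contrast ran from 2.02 to 30.2. Of the 122, mTEChi lay within 2-fold of DC for 61 by the 95% interval (0.421% of genes tested), was called lower than DC for 47 (0.324%), higher for 2 (0.0138%), and for 12 none of these held. The median difference of mTEChi minus DC over the shared genes was -0.56, against -0.03 over all genes tested. mTEClo had the highest mean of the other populations for 71 of the shared genes, fibroblasts for 33 and cTEC for 18. In the same contrast 7 of 11 macrophage markers were called higher in the partners and none lower, and their part in the shared genes was not tested. Since mTEChi were sorted as high and mTEClo as low for CD80 and MHC class II, the height of these 2 products over mTEClo was part of the choice of cells.

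Ncf1 led the shared genes. It encodes p47phox, the organiser subunit of the phagocyte NADPH oxidase, which makes superoxide. Its log2 signal was 11.54, 12.18 and 12.57 in mTEChi (lowest, median, highest), 11.22, 11.66 and 12.07 in DC and 5.63 to 9.19 in the other arrays. The partners overlapped with each other and lay apart from all other arrays. Ncf1 was 30.2-fold higher in the partners (limma, adjusted p = 7.27e-20), and mTEChi exceeded DC by 0.51 ± 0.20 SE, under 2-fold. Ncf4, the p40phox subunit, was 10.8-fold higher in the partners, with 9.55 to 10.30 in mTEChi and 9.39 to 10.58 in DC. Cyba, the small membrane subunit p22phox, had 12.17 to 12.72 in mTEChi, 12.04 to 12.68 in DC and 8.85 to 11.20 elsewhere. Cybb, the catalytic subunit, followed another pattern, with 8.77 to 9.32 in mTEChi, 6.25 to 9.29 in Sirpa- DC and 11.18 to 11.56 in Sirpa+ DC. mTEChi were thus called above Sirpa- DC (log2 1.46 ± 0.44 SE, adjusted p = 0.00516) and below Sirpa+ DC (-2.31 ± 0.44, adjusted p = 5.95e-05) for Cybb.

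Kynu, the enzyme kynureninase of tryptophan breakdown, had 7.95, 8.58 and 9.12 in mTEChi, 7.68, 8.57 and 9.68 in DC and 3.77 to 5.96 elsewhere, so the partners overlapped and stood apart from the rest (18.6-fold, adjusted p = 1.52e-21). Its difference between the partners was -0.11 ± 0.14 SE. Kmo, the monooxygenase one step before it, had 6.34, 6.65 and 6.77 in mTEChi and 8.83, 9.39 and 10.39 in DC, with no overlap. Kmo was 7.69-fold lower in mTEChi (adjusted p = 4.19e-16) and still higher there than in every other array, at 3.79 to 5.56. Ido1, the first and rate-limiting step, ran the other way, with 5.87, 7.34 and 7.65 in mTEChi against 4.21, 4.79 and 5.32 in DC, a 5.27-fold difference. The lowest mTEChi value of Ido1 came from 6-month array 2.

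Other shared genes at like levels covered several functions. Ebi3, the subunit common to the cytokines IL-27 and IL-35, had 8.23, 8.66 and 9.05 in mTEChi, 7.66, 8.94 and 9.57 in DC and 4.34 to 5.90 elsewhere (13.2-fold in the partners, adjusted p = 8.86e-21). Fscn1, the actin-bundling protein fascin of mature DC, had 11.94 to 13.23 in mTEChi and 12.19 to 13.17 in DC. Runx3, a transcription factor, was 11.6-fold and the metalloprotease gene Adam8 12.7-fold higher in the partners. Ctsh, a lysosomal cathepsin, was 10.6-fold and the potassium channel gene Kcnk6 10.4-fold higher. mTEChi and DC differed by less than 2-fold, interval included, for each of these 6 genes.

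Another set of shared genes was higher in DC. Gatm, the first enzyme of creatine synthesis, had 8.54, 9.16 and 9.43 in mTEChi and 9.63, 10.58 and 11.05 in DC, and all other arrays lay at 4.38 to 7.10. Pkib, an inhibitor of protein kinase A, had 4.72, 7.40 and 7.69 in mTEChi and 10.27, 10.53 and 11.17 in DC, against 3.55 to 4.67 elsewhere. The low value of Pkib was that of 6-month mTEChi array 2, which barely cleared the other populations. Wdfy4, needed for cross-presentation by DC, was 10.5-fold, Batf3, a transcription factor of cross-presenting DC, 10.7-fold, and Ly86, a partner of the receptor RP105, 12.8-fold lower in mTEChi than in DC. Each was nonetheless above all 18 other arrays in every mTEChi array. The 2 shared genes called higher in mTEChi were Gca, which encodes the calcium-binding protein grancalcin (3.78-fold), and Dgat2, an enzyme of triglyceride synthesis (2.07-fold). They were named because they are the only ones in that class, after their values were seen.

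Both partners also lay below the rest for 122 genes (0.842%). Leading ones were Efemp1 (24.6-fold), an extracellular matrix protein, and Mgp (23.5-fold), the matrix Gla protein. Efemp1 had 5.37 to 5.91 in mTEChi, 3.39 to 4.77 in DC and 7.39 to 11.41 elsewhere. Only 2 of these 122 genes were on any list used here.

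Of 18 tested genes of the MHC class II pathway, 2 were called higher in mTEChi and 3 lower (27.8% in all, against 27.2% of all genes tested), with a median difference of -0.31. The whole interval lay within 2-fold for 8 (44.4%, against 64.1% of all genes). H2-Aa, the alpha chain of I-A, had 13.06, 13.53 and 14.35 in mTEChi and 13.36, 13.92 and 14.38 in DC (difference -0.22 ± 0.20 SE, adjusted p = 0.322). The arrays overlapped, as they did for its partner chain H2-Ab1 (-0.28 ± 0.18), for H2-Eb1 (-0.26 ± 0.19) and for the invariant chain gene Cd74 (-0.06 ± 0.18). Ciita, the class II transactivator, had 6.98 to 7.86 in mTEChi and 7.13 to 8.68 in DC, a difference of -0.49 ± 0.16 that was under 2-fold. In the contrast of both partners against the rest, 12 of the 18 were called higher and 1 lower, against 8.52% and 8.51% of all genes. Only 2 were higher without overlap. The mean of the list per array was 9.75 to 10.24 in mTEChi, 9.42 to 9.77 in cTEC and 9.48 to 9.93 in mTEClo. In fibroblasts it was 7.42 to 8.17, so the lead over the rest was largest over fibroblasts.

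The class II pathway genes that differed encode proteins acting on finished chains or their peptides. Marchf1, the ubiquitin ligase that removes class II and CD86 from the surface, had 4.51, 4.63 and 5.09 in mTEChi and 8.23, 9.23 and 9.96 in DC, and was 21.0-fold lower in mTEChi. Lgmn, the asparagine endopeptidase of lysosomes, had 6.04, 6.78 and 7.17 in mTEChi and 8.29, 9.59 and 10.90 in DC, and was 7.39-fold lower. The groups did not overlap for either gene. The peptide exchange factor gene H2-DMa was 2.56-fold lower in mTEChi, and H2-Oa, a chain of the DM inhibitor DO, 2.53-fold higher with overlapping arrays. Ctsl, a cathepsin of thymic epithelium that processes the invariant chain, was 3.0-fold higher, again with overlap. Over its 2 probe sets the difference ran from 0.04 to 1.58, so the call holds for the probe set used. Of 17 class I pathway genes, Nlrc5, the class I transactivator (2.22-fold), and Psmb9, an immunoproteasome subunit (2.02-fold), were called lower in mTEChi, and none was called higher. The called share was 11.8%, against 27.2% of all genes tested.

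Of 17 tested costimulation and coinhibition genes 1 was called higher in mTEChi and 6 lower, 9 were within 2-fold, and the median difference was 0.27. The called share was 41.2%, against 27.2% of all genes tested, and the share within 2-fold was 52.9%, against 64.1%. Cd80 had 8.23, 8.72 and 9.88 in mTEChi, 7.99, 8.38 and 8.93 in DC and 4.25 to 6.63 elsewhere, so both partners stood above the rest (9.39-fold) and overlapped each other (difference 0.39 ± 0.14 SE). Over the 4 probe sets of Cd80 the difference ran from -0.31 to 2.23. The like levels of the partners thus hold for the probe set used here. Cd86, the other ligand of CD28 and CTLA-4, had 7.40, 8.43 and 9.04 in mTEChi, 10.22, 11.13 and 11.77 in DC and 4.72 to 5.55 elsewhere. It stood above the rest in both partners (23.9-fold, adjusted p = 6.52e-23) and was 6.79-fold lower in mTEChi than in DC (-2.76 ± 0.12, adjusted p = 1.62e-16).

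Cd40, the receptor that takes CD40 ligand from T cells, had 10.84, 11.29 and 11.74 in mTEChi and 10.29, 10.86 and 11.13 in DC, and 6.21 to 10.18 elsewhere. The partners overlapped and were 8.28-fold above the rest. Tnfsf9, the ligand of 4-1BB, differed by -0.01 ± 0.12 between the partners and was also above all other arrays. Cd70, the ligand of CD27, was the member called higher in mTEChi, with 9.05, 9.62 and 9.94 against 4.84, 6.14 and 7.87 in DC (9.51-fold, no overlap). Cd48, a ligand of CD244, was 47.3-fold, Cd83, which protects class II and CD86 from Marchf1, 7.40-fold, and the checkpoint gene Vsir 7.24-fold lower in mTEChi. The checkpoint ligand genes Cd274 and Pdcd1lg2 differed by 0.27 and 0.44 and were not called.

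**Figure D2:**
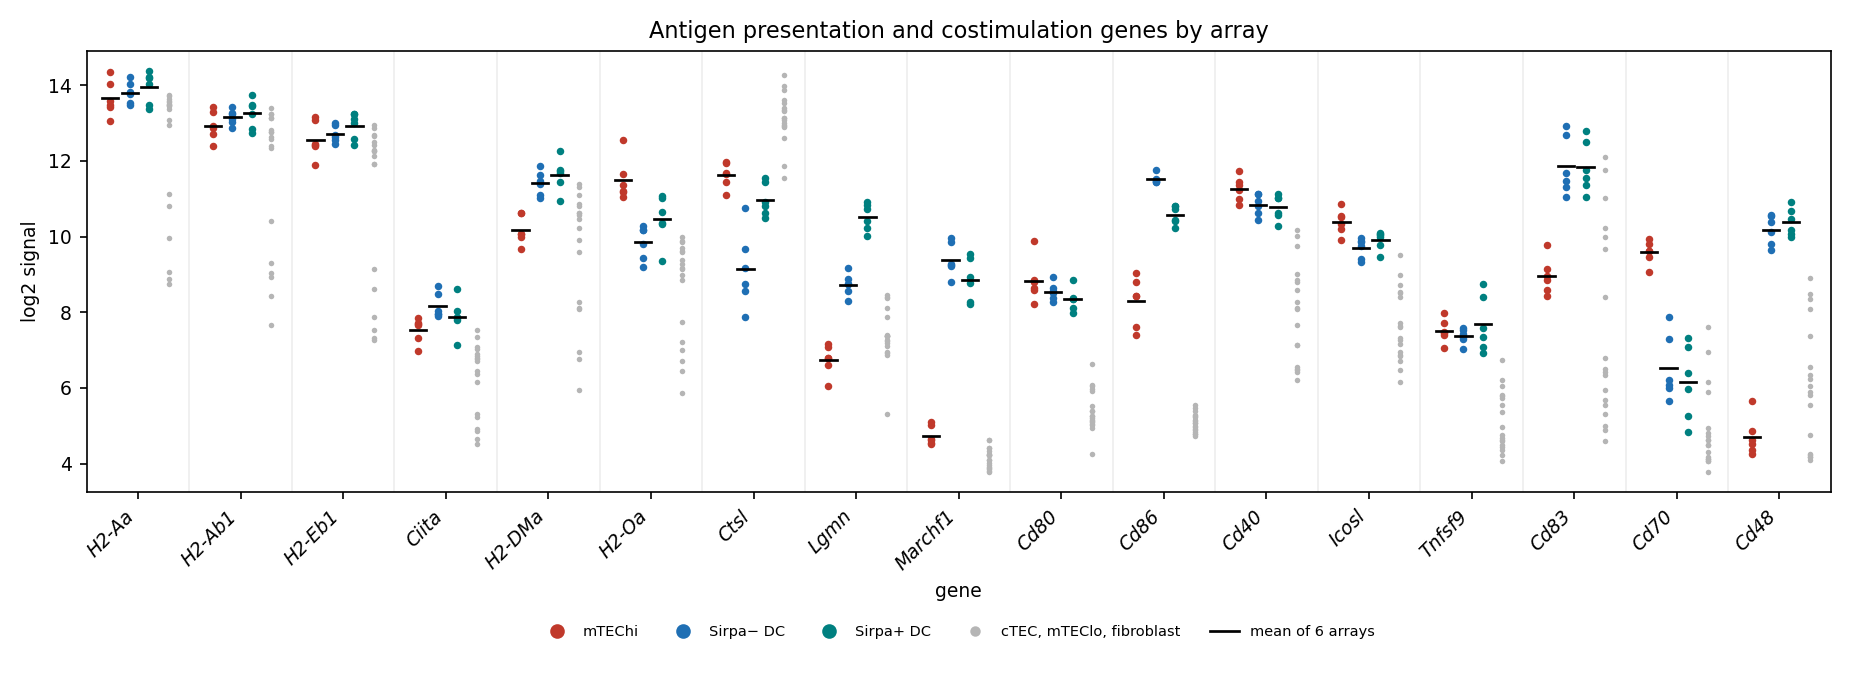
Log2 signal of 17 antigen presentation and costimulation genes in each array of mTEChi (red), Sirpa- DC (blue) and Sirpa+ DC (green), with the 18 other arrays in grey and bars at the mean of 6 arrays. On the probe set used for each gene, the MHC class II chains, Cd80 and Cd40 overlap between partners, while Cd86, Marchf1, Cd70 and Cd48 do not.

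Chemokines divided between the partners. Of 20 tested genes 9 were called higher in mTEChi and 6 lower, and 3 were within 2-fold. The called share was 75.0%, against 27.2% of all genes tested. The share within 2-fold lay below the 64.1% of all genes. Ccl22, a ligand of Ccr4 on medullary thymocytes, had 9.86, 10.27 and 10.95 in mTEChi, 11.09, 11.91 and 12.76 in DC and 5.15 to 8.14 elsewhere. The partners did not overlap, with mTEChi 2.84-fold lower (adjusted p = 7.72e-07), and both stood above the rest (29.5-fold). Ccl17, the second Ccr4 ligand, had 7.15 to 9.40 in mTEChi and 7.42 to 10.49 in DC, and Ccl5 had 10.69 to 11.73 and 10.59 to 12.09. Ccl17 was called 2.44-fold lower in mTEChi, its highest mTEChi value being that of 6-month array 2, and Ccl5 differed by -0.24 ± 0.31 SE.

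Chemokines higher in mTEChi included Ccl25, the ligand of Ccr9, at 11.23, 11.48 and 11.86 against 5.80, 6.41 and 7.55 in DC (31.2-fold, no overlap). Ccl20, the ligand of Ccr6, was 13.1-fold higher at 8.92 to 10.37 against 5.47 to 6.03. Those higher in DC were Ccl4 (8.86-fold) and Ccl3 (7.99-fold), both inflammatory chemokines, and Cxcl16 (4.07-fold), the ligand of Cxcr6. Ccl9, Ccl6 and Cxcl2, inflammatory attractants of myeloid cells, differed from Sirpa+ DC by 0.55 ± 0.37, 0.35 ± 0.47 and 0.25 ± 0.43 (log2, SE) and were not called there. Against Sirpa- DC the same genes were called higher in mTEChi by 4.10, 3.06 and 3.04.

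Of 14 chemokine receptors 7 were called lower in mTEChi, 3 higher and 4 neither, with a median difference of -1.38. The called share was 71.4%, against 27.2% of all genes tested. Ccr7, which guides cells to the medulla, had 7.0, 7.29 and 7.99 in mTEChi and 9.69, 10.14 and 10.54 in DC (6.78-fold lower, no overlap). Xcr1, the receptor for the mTEChi chemokine Xcl1, had 8.80 to 9.89 in Sirpa- DC, 4.31 to 5.08 in Sirpa+ DC and 3.62 to 4.29 in mTEChi. Cxcr5, better known from B cells, was called higher in mTEChi at 6.38 to 7.38 against 4.54 to 5.69 (3.07-fold).

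Cytokine genes differed by subunit. Il12b, the p40 chain of IL-12 and IL-23, had 4.48, 5.75 and 6.54 in mTEChi, 7.78, 9.38 and 10.57 in DC and 3.63 to 4.02 elsewhere (12.5-fold lower in mTEChi, adjusted p = 2.67e-15). Il23a, the p19 chain of IL-23, had 9.28, 9.65 and 10.47 in mTEChi and 4.04, 4.57 and 4.86 in DC (37.6-fold higher, adjusted p = 2.55e-21). Il12a, the p35 chain of IL-12, was 3.83-fold higher in mTEChi at 5.98 to 6.80 against 4.11 to 4.69. None of the 3 chains overlapped between the partners, and p40 was the one higher in DC. Il1b (9.37-fold), Il6 (9.86-fold) and Il18 (7.12-fold), all inflammatory cytokines, were lower in mTEChi. Il1rn, the antagonist of the IL-1 receptor, was 7.98-fold and Ptgs2, a prostaglandin synthase, 10.3-fold higher there. In all, 7 of 17 inflammatory genes were called higher in mTEChi and 6 lower (76.5% called, against 27.2% of all genes), with a median of 0.11.

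Of 16 mediators linked to tolerance, 8 were called higher in mTEChi and 1 lower, with a median difference of 1.38. The called share was 56.2%, against 27.2% of all genes tested. Tgfb2, a form of TGF-beta, had 8.37, 8.49 and 8.81 in mTEChi and 3.60, 3.91 and 4.36 in DC (24.5-fold, no overlap). Tgfb1 was the member called lower, at 4.41, 4.61 and 5.53 against 6.46, 6.84 and 7.40 (4.05-fold, no overlap). Itgb8, a subunit of the integrin that activates TGF-beta, was 28.0-fold higher in mTEChi, and the arginase gene Arg2 17.7-fold. Il7, the thymocyte growth factor, was 14.9-fold and Tslp 6.75-fold higher. Aldh1a1, an enzyme of retinoic acid synthesis, was 6.51-fold higher, while Aldh1a2 differed by 0.36 ± 0.19 SE and was not called. The DC populations were unlike for Aldh1a2. Its means at 1, 3 and 6 months were 6.63, 6.68 and 5.43 in mTEChi. They were 4.8, 5.34 and 4.69 in Sirpa- DC and 6.39, 7.63 and 6.49 in Sirpa+ DC.

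**Figure D3:**
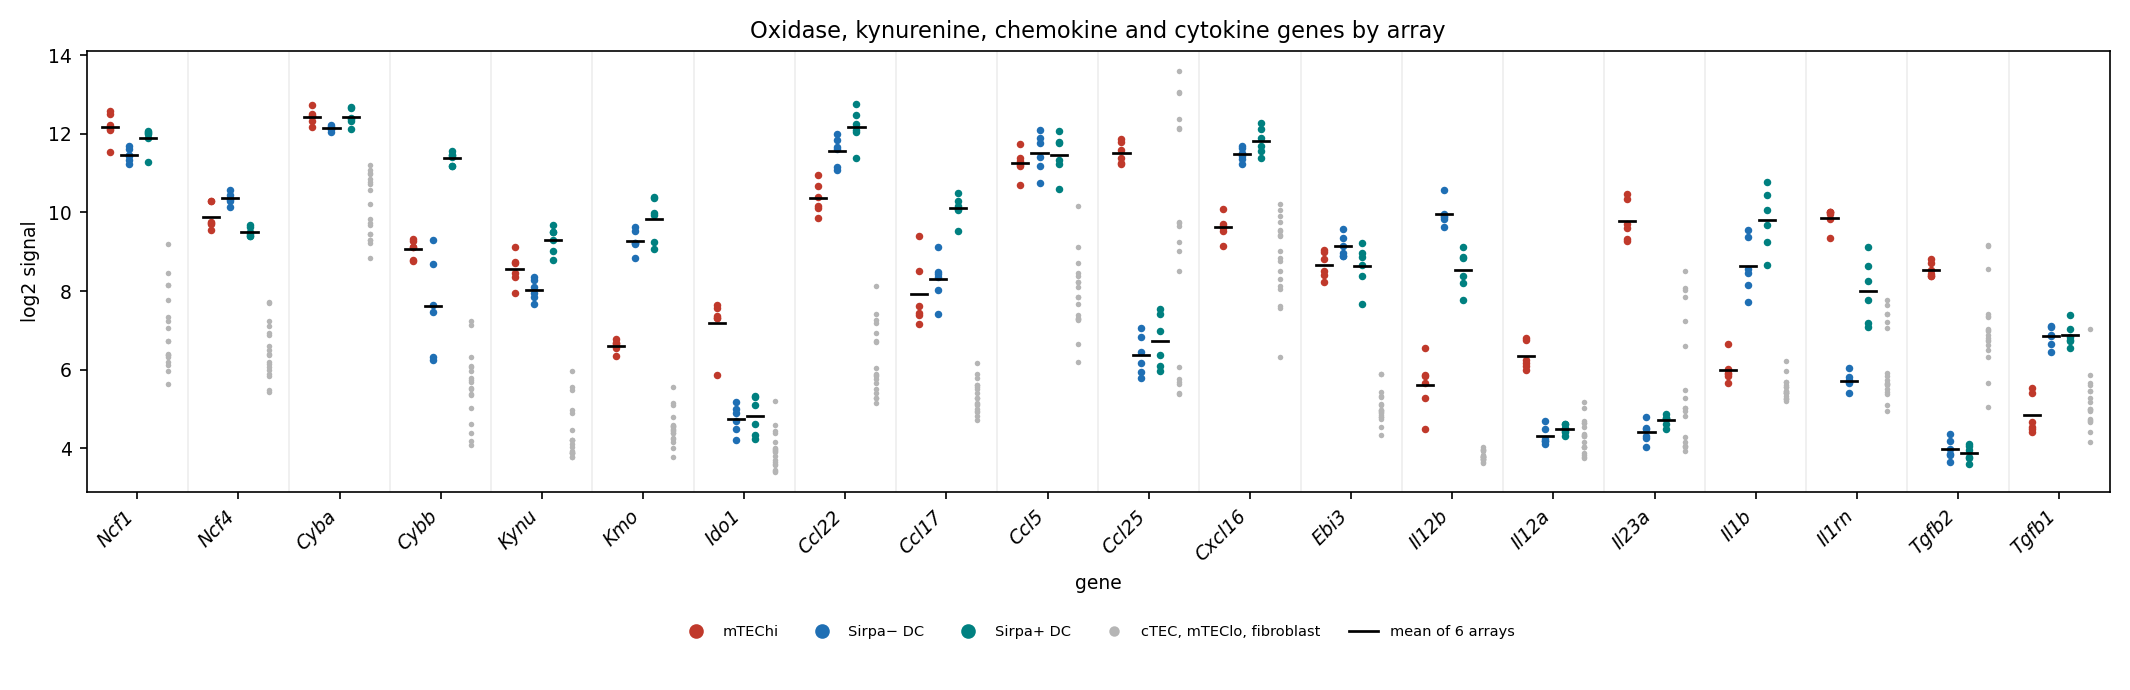
Log2 signal of 20 oxidase, kynurenine, chemokine and cytokine genes in each array, with mTEChi in red, Sirpa- DC in blue, Sirpa+ DC in green, the 18 other arrays in grey and bars at the mean of 6 arrays. Ncf1, Kynu and Ebi3 overlap between partners and stand above the grey points, Il12b is the DC gene and Il23a the mTEChi gene of one cytokine.

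Of 24 NF-kB and TNF receptor genes, 2 were called higher in mTEChi and 5 lower, with a median of -0.06, and 16 were within 2-fold. The called share of 29.2% and the share within 2-fold of 66.7% were near those of all genes tested (27.2% and 64.1%). Relb, needed for mTEC development, differed by 0.46 ± 0.13 SE and Nfkb2, its partner, by 0.66 ± 0.10. Tnfrsf11b, the decoy receptor osteoprotegerin, had 9.66, 10.08 and 10.44 in mTEChi and 2.81, 3.17 and 5.07 in DC (108-fold, adjusted p = 3.19e-18). Tnfrsf11a, the receptor RANK, was 2.98-fold higher in mTEChi. Rel, an NF-kB subunit, was 2.87-fold and the adaptor gene Traf5 5.4-fold lower. None of these 4 genes overlapped between the partners.

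Of a list of 28 genes of activated DC, 20 were called higher in the partners than in the rest (8.52% of all genes were). None was lower, and the median was 1.68 against -0.001 over all genes tested. DC alone can give such calls, and 7 of the 20 were without overlap. Between the partners 2 of the 28 were called higher in mTEChi, 10 lower and 14 were within 2-fold. The called share was 42.9%, against 27.2% of all genes tested. Over all genes 8.98% were called lower and 64.1% were within 2-fold, so the list was less alike between the partners than genes at large. Fscn1, Ccl22 and Ccl17 described above are members. Samsn1 (-2.91), an adaptor of immune cells, and Nr4a3 (-3.07), a nuclear receptor, were among the lower ones, and Eno2 (2.22), an enolase, was among the higher.

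Identity genes set the partners apart. Of 27 epithelial junction and keratin genes 21 were called higher in mTEChi and none lower, with a median of 2.74. The share called higher was 77.8%, against 18.2% of all genes tested. Krt8 was at 12.40 to 13.34 in mTEChi and 6.81 to 8.74 in DC (36.1-fold), and Dsp, the desmosome protein desmoplakin, was 51.5-fold higher. Both lay apart, whereas Cdh1, the gene of E-cadherin, had 10.08 to 11.10 in mTEChi, 9.45 to 10.30 in Sirpa+ DC and 4.33 to 7.90 in Sirpa- DC. Epcam, another epithelial adhesion gene, likewise had 11.03 to 12.13, 9.46 to 11.10 and 7.73 to 9.33 in the same order. For both genes mTEChi overlapped with Sirpa+ DC and not with Sirpa- DC.

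Of 20 haematopoietic genes 16 were called lower in mTEChi and 1 higher, with a median of -3.0. The called share was 85.0%, against 27.2% of all genes tested. Hcls1, a cytoskeletal adaptor of blood cells, had 4.45, 4.84 and 5.06 in mTEChi and 9.59, 9.94 and 10.19 in DC (35.2-fold lower). Ptprc had 8.19, 8.36 and 9.76 in mTEChi against 11.96, 12.16 and 12.75 (12.7-fold lower). Neither overlapped, and Rac2, a small GTPase, was the member called higher, by 1.09. Over the 2 probe sets of Rac2 the difference ran from -0.14 to 1.09, so the call holds for the probe set used. Of 21 DC lineage genes none was called higher in mTEChi, and 16 were lower (76.2%, against 8.98% of all genes tested) with a median of -2.07. The same list gave 18 genes called higher in the partners than in the rest and none lower, 8 without overlap. Such calls, made for 8.52% of all genes, can come from DC alone. Only the 8 without overlap had every mTEChi array above the rest. Csf1r, the receptor of the myeloid growth factor CSF1, had 9.28, 9.50 and 10.63 in mTEChi, 9.75, 11.77 and 13.10 in DC and 5.75 to 7.82 elsewhere. Flt3 had 7.15, 7.70 and 8.50 in mTEChi and 6.25 to 7.08 elsewhere, while Itgax in mTEChi overlapped with the other arrays.

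Of 20 uptake and cross-presentation genes none was called higher in mTEChi, 10 were lower and 10 were not called, and of 19 pattern recognition receptors none was higher, 10 were lower and 9 were not called. Over all genes tested 18.2% were called higher and 8.98% lower. Cd36, a scavenger receptor, had 4.12 to 4.94 in mTEChi, 9.18 to 9.82 in Sirpa- DC and 4.94 to 6.62 in Sirpa+ DC. Tlr3, the receptor of double-stranded RNA, followed with 5.98 to 7.84, 10.24 to 11.30 and 7.24 to 8.35. Clec7a, the beta-glucan receptor dectin-1, was instead highest in Sirpa+ DC at 12.37 to 12.70, against 7.73 to 9.29 in mTEChi and 9.15 to 10.66 in Sirpa- DC. Cd14, a co-receptor for bacterial products, differed by -0.09 ± 0.15 SE from the mean of both DC populations, which were unlike. Its means at 1, 3 and 6 months were 8.62, 8.52 and 8.5 in mTEChi. In the same order they were 7.26, 7.87 and 8.82 in Sirpa- DC and 9.09, 9.1 and 9.64 in Sirpa+ DC.

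Tissue antigens had the highest medians of the 26 lists on the mTEChi side. Of 17 tested antigens known to depend on Aire, 14 were called higher in mTEChi and none lower, with a median difference of 4.28. The share called higher was 82.4%, against 18.2% of all genes tested. Csn2, the milk protein beta-casein, had 12.36, 12.91 and 13.45 in mTEChi and 4.29, 5.72 and 8.54 in DC (123-fold). Mucl2, a secreted mucin-like protein, had 8.87, 9.29 and 10.09 against 3.09, 3.45 and 3.88 (63.3-fold), and the gut antimicrobial gene Reg3g was 77.3-fold higher. None of the 3 overlapped. Of 14 tested antigens dependent on Fezf2 or on other control, 12 were called higher (85.7%, against 18.2% of all genes tested) and none lower, with a median of 4.20. Examples were the neuropeptide gene Calcb (155-fold) and the hormone gene Crh (63.3-fold). Ins2, insulin, had 6.91 to 8.31 in mTEChi and 6.29 to 6.89 in DC, a difference of 0.93 ± 0.11 SE that fell short of 2-fold.

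The largest single differences were Skint10 and Olfm4. Skint10, of a family whose first member selects skin gamma-delta T cells, had 11.74, 12.02 and 12.29 in mTEChi and 3.64, 4.36 and 5.75 in DC (186-fold, adjusted p = 1.65e-23). Olfm4, a marker of gut crypt cells, had 10.92, 11.16 and 11.83 against 3.22, 3.68 and 4.43 (179-fold). Fezf2 (136-fold), Saa1 (104-fold), an acute phase protein, and Krt17 (102-fold) were further named genes, none with overlap. On the DC side Gm6377 (77.3-fold) and Rnase6 (56.1-fold), an antimicrobial ribonuclease, led. Gm6377 had 3.12, 3.35 and 6.16 in mTEChi, where the highest value was that of 6-month array 1, and 8.60, 10.24 and 11.69 in DC. Havcr2, the gene of TIM-3, had 3.66, 3.75 and 5.29 against 8.68, 9.11 and 9.89 (37.7-fold lower), the same array again being highest. Itgae, the integrin chain CD103, was 26.7-fold and P2ry6, a nucleotide receptor, 30.2-fold lower in mTEChi.

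**Figure D4:**
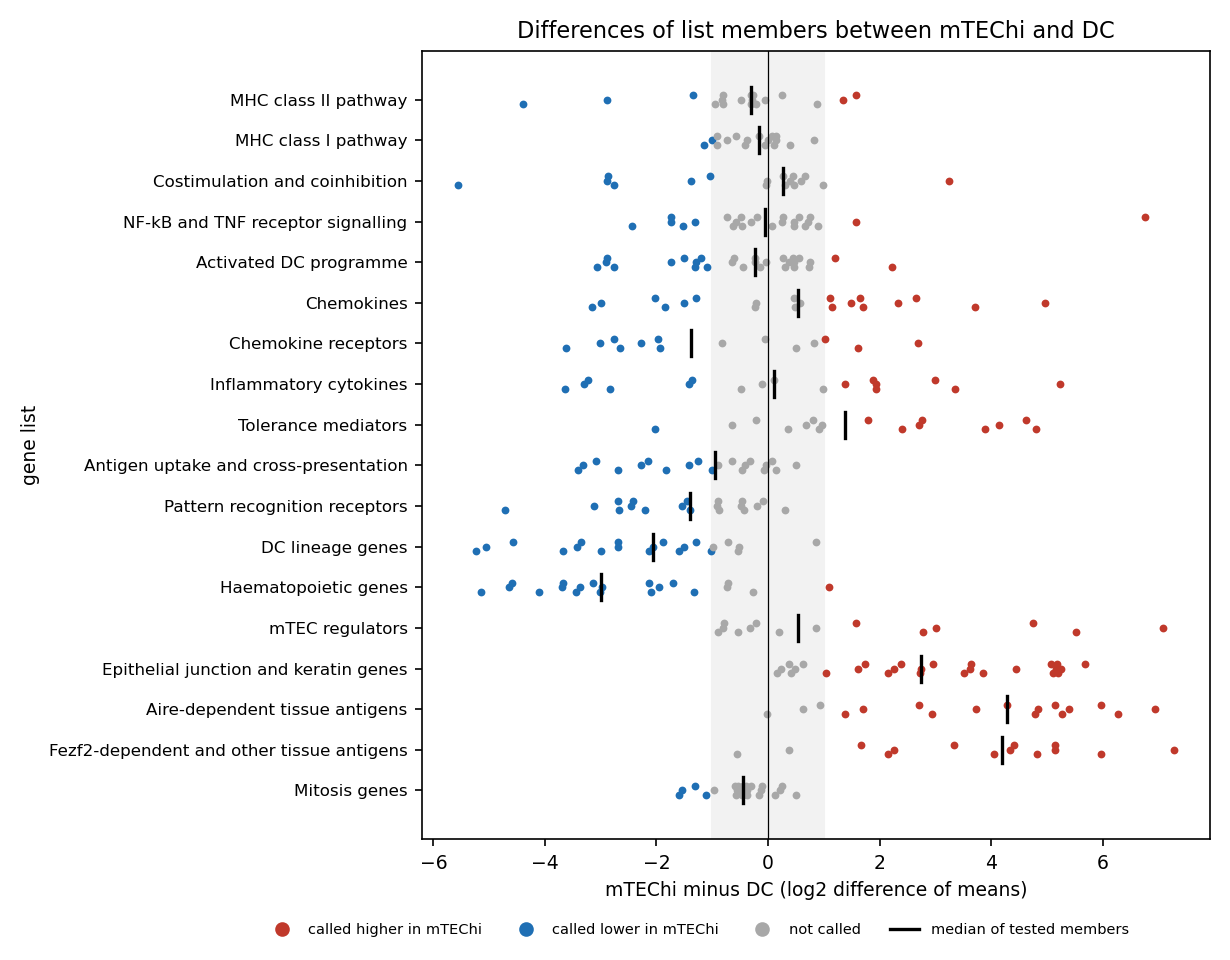
Log2 difference of mTEChi minus DC for each tested gene of 18 lists (points), with the median of the list (bar) and the 2-fold range shaded. Red points were called higher in mTEChi and blue points lower. MHC and NF-kB lists centre near 0, tissue antigens and epithelial genes lie to the right, and haematopoietic and DC lineage genes to the left.

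Of 25 mitosis genes none was called higher in mTEChi, 4 were lower and 20 were within 2-fold of DC. The share within 2-fold lay above the 64.1% of all genes tested, and the called share below their 27.2%. Mki67, the proliferation marker Ki-67, had a median of 10.43 in mTEChi and 10.74 in DC, a difference of -0.37 ± 0.13 SE, and the arrays overlapped. The median of the list was -0.45. In the contrast of both partners against the rest 13 were called higher (8.52% of all genes were) and none lower, but 0 were higher without overlap. The mean of the list per array was 8.08 to 8.61 in mTEChi and 8.25 to 9.05 in DC. It was 5.84 to 8.24 in cTEC, 6.16 to 8.07 in mTEClo and 7.53 to 9.73 in fibroblasts. The highest fibroblast array thus lay above all arrays of both partners.

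The DC populations differed from each other in 779 genes (5.37%), 561 higher in Sirpa+ DC (3.87%) and 218 lower (1.5%), and mTEChi stood with one of them in some of these. For 145 genes (1.0%) mTEChi lay within 2-fold of Sirpa- DC and were called against Sirpa+ DC, of which 115 (0.793%) were higher in Sirpa+ DC and 30 (0.207%) in Sirpa- DC. For 143 genes (0.987%) the reverse held, with 95 (0.655%) and 48 (0.331%). Oasl2, induced by interferon, had 9.19, 9.79 and 10.25 in mTEChi, 9.27, 9.73 and 10.05 in Sirpa+ DC and 5.98, 6.17 and 7.07 in Sirpa- DC. Ifit1, also induced by interferon, had a median of 9.62, 9.47 and 6.61 in the same order, and Apobec1, a cytidine deaminase, had 9.32 to 9.91, 8.84 to 9.99 and 6.34 to 7.37. mTEChi overlapped with Sirpa+ DC and not with Sirpa- DC for these 3 genes. Homer2, a scaffold protein, went the other way, with 8.49 to 9.51 in mTEChi, 8.54 to 9.25 in Sirpa- DC and 5.36 to 5.98 in Sirpa+ DC. Genes low in mTEChi and in one DC population were Ccr1, a chemokine receptor (high in Sirpa+ DC at 8.71 to 9.21), and Notch4 (high in Sirpa- DC at 9.18 to 10.10).

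The difference between the partners changed with age in few genes. Within mTEChi 895 genes (6.17%) were higher and 484 (3.34%) lower at 6 months than at 1 month by adjusted p, and within DC 688 (4.75%) and 468 (3.23%). From 1 to 3 months 1 gene was called (0.0069%), Cdh2. From 1 to 6 months 104 genes were called at an adjusted p under 0.05 (0.717%), 67 with a rise of mTEChi relative to DC (0.462%) and 37 with a fall (0.255%). The rising share of 64.4% was 51.5% after quantile normalization and 56.3% with equal array medians. The count rested on single mTEChi arrays: 2029 genes were called without 6-month array 1, 22 without 6-month array 2, 17 without 1-month array 1 and 48 without 1-month array 2. An F-test over all ages called 76 genes (0.524%).

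S100g, Pid1 and Sval2 were called from 1 to 6 months also without each of these 4 arrays. S100g, a calcium-binding protein of gut, had 8.10 and 8.34 in mTEChi at 1 month, 7.98 and 8.35 at 3 months and 5.89 and 4.81 at 6 months, while DC stayed at 3.64 to 4.12. The change of the difference was -2.70 (limma, adjusted p = 7.52e-05). Pid1, a regulator of insulin signalling, went from 7.08 and 7.01 to 6.13 and 5.15 in mTEChi, from 9.44 and 9.62 to 10.46 and 10.51 in Sirpa- DC and from 8.72 and 8.63 to 10.31 and 10.02 in Sirpa+ DC. So mTEChi fell while both DC populations rose, and the difference changed by -2.63 (adjusted p = 0.000286). Sval2 changed by -2.22 (adjusted p = 0.000481), from 7.43 and 6.74 at 1 month to 5.14 and 4.27 at 6 months in mTEChi.

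Other genes lost their call without single arrays. Cdh2, the gene of N-cadherin, had 7.03 and 7.17 in Sirpa- DC at 1 month and 3.86 and 4.14 at 6 months, and 8.59 and 8.09 against 5.33 and 4.99 in Sirpa+ DC. In mTEChi it had 9.37 and 8.74 against 7.88 and 7.97, so that it was lower at 6 months in all 3 populations, by more in DC (change of the difference 2.01, adjusted p = 0.0395). Tm4sf5, a tetraspanin-like protein among the shared genes (19.9-fold), had 9.91 and 9.82 in mTEChi at 1 month and 10.43 and 10.62 at 6 months, while Sirpa- DC went from 10.96 and 10.80 to 9.23 and 9.07. The difference of Tm4sf5 from Sirpa- DC therefore changed sign between 1 and 6 months. Against both DC populations together the change was 2.06 (limma, adjusted p = 0.0203). Cd163, a macrophage scavenger receptor, had 4.77 and 4.38 in Sirpa- DC at 1 month and 9.55 and 10.05 at 6 months, and in both DC populations 1 of the 3-month arrays was low and the other high. The mean of the 11 macrophage markers, a list without Cd163, in Sirpa- DC was 8.05 and 7.15 at 1 month, 6.93 and 8.49 at 3 months and 8.51 and 8.62 at 6 months, and 8 of the 11 had both 6-month arrays above both 1-month arrays. In Sirpa+ DC that mean was 10.51 and 10.28 at 1 month and 10.06 and 10.08 at 6 months, and 9 of the 11 had both 6-month arrays below. The part of macrophage RNA in the change of Cd163 was not tested. Without 6-month mTEChi array 2, the adjusted p was 0.173 for Cdh2, 0.136 for Tm4sf5 and 0.224 for Cd163. The 3′ minus 5′ signal of control probe sets, a measure of RNA integrity, was 1.41 to 1.52 in DC at 6 months and 1.75 to 1.82 at 1 month. With it as a covariate the adjusted p was 0.0413 for Cdh2, 0.0237 for Tm4sf5 and 0.0398 for Cd163, and S100g, Pid1 and Sval2 were also called.

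**Figure D5:**
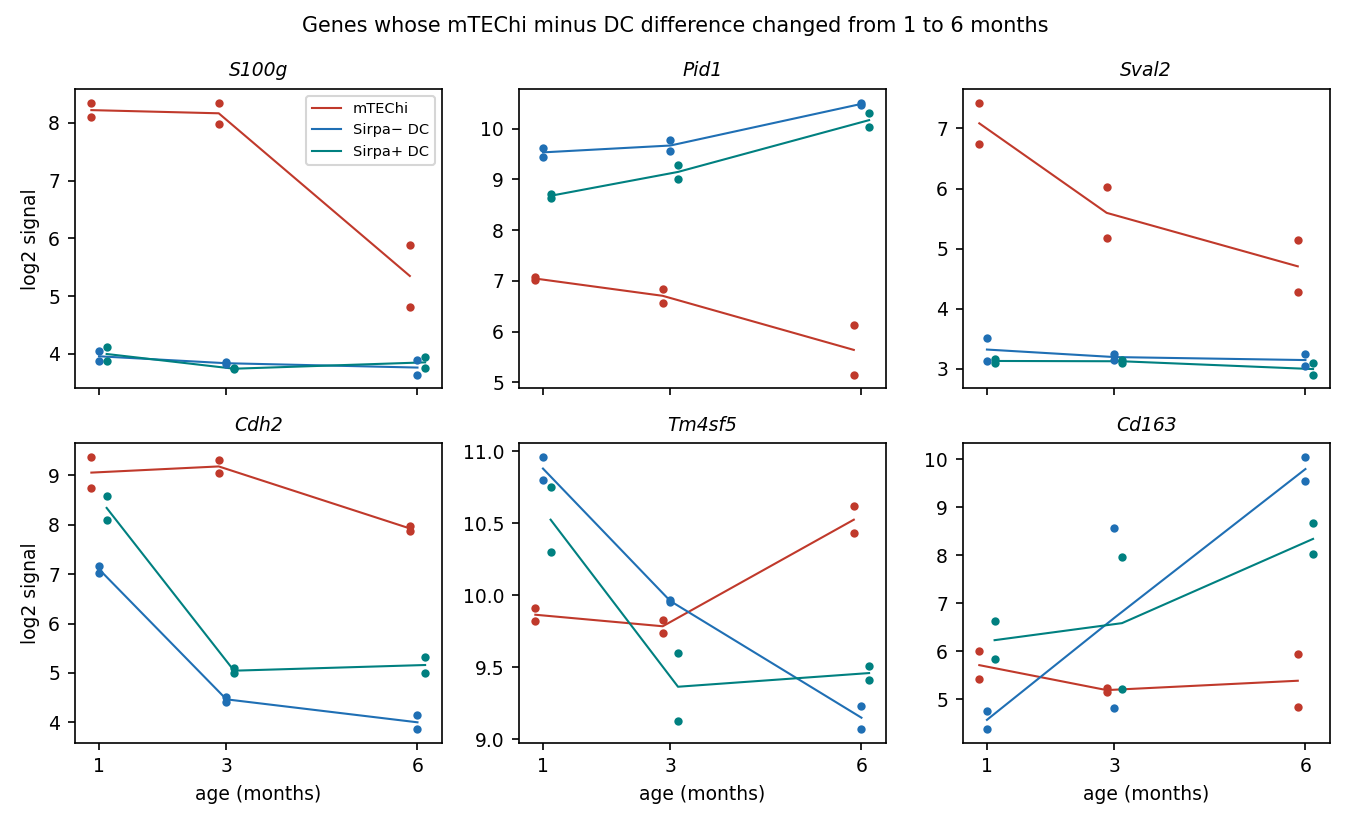
Log2 signal by age in months of 6 genes whose mTEChi minus DC difference changed from 1 to 6 months, with a point per array and lines through the mean of 2 arrays of mTEChi (red), Sirpa- DC (blue) and Sirpa+ DC (green). S100g falls in mTEChi at 6 months to 5.89 and 4.81, and Cd163 rises in both DC populations.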

How the data were processed

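RNA of sorted thymic populations was hybridised to Affymetrix mouse arrays. Per the labels' protocols, RNA was extracted with Trizol and turned into biotinylated cRNA. The authors deposited a table of log2 signals, made from the raw arrays in Gene Expression Commons per the series' design text. The submitters' processing notes name GCRMA, whose version is not given in the sources used here. No label states the log base, which was taken from how far the values range. Array medians lay between 5.611 and 5.745, and nothing was rescaled.

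Of 45101 probe sets, 34945 had 1 gene symbol. Each of 18193 genes was taken from its probe set with the highest mean over 36 arrays, and 14495 genes above the pooled median of 5.6551 in at least 2 arrays were tested. In R 4.3.3, limma 3.58.1 (lmFit, eBayes with trend) estimated the 18 means of population and age from the 36 arrays together, which leaves 18 residual degrees of freedom, and contrasts weighted ages equally. All p-values are two-sided and Benjamini-Hochberg adjusted over the tested genes. Age tests needed an adjusted p under 0.05 with no limit on size. Genes per array were compared with an exact permutation test (scipy 1.17.1 in Python 3.11.15). On simulated data the fit recovered 99% of 100 genes changed by 1.5 on the log2 scale and 100% of 100 changed by 3.

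The 26 gene lists held 446 different genes: 414 were on the array under 1 symbol and 399 passed the filter. Members and lists were chosen with earlier results of these data known. Genes are named as the 15 largest differences each way between the partners and the 15 largest shared without overlap, the 10 largest shared within 2-fold, the 5 largest lower in both, the 5 largest each way for age (6-month apart from 1-month arrays within mTEChi or within DC) and for each DC population, and any list member. Promoters come from RefSeq, build GRCm38.p6. Alternatives were other filters, probe set rules, scalings, variance models, thresholds, an RNA quality covariate, a replicate block, only the compared arrays, and leaving out each array in turn. The number of arrays limits the precision.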

Additional observations from a re-analysis of the deposited data

Results flagged for a closer look

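Values of single arrays lay far from the other 5 of their population in 6 of 81 groups tested, by Dixon's test at the 95% level, which chance passes in about 1 of 20 groups. The mTEChi array with the fewest genes above a log2 signal of 7 had 8381. Among Sirpa- DC, the highest value stood apart for Cd86 (11.77), for Il12b (10.57) and for the mean of the B cell markers (6.83). Among Sirpa+ DC, the lowest value stood apart for Ncf1 (11.27) and the highest for the mean of the fibroblast markers (6.18).

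The difference between mTEChi and DC changed from 1 to 6 months for 10 genes named by rule, by the test of the change itself (limma, adjusted p). It rose for Ntm, a neuronal adhesion gene, by 2.18 (adjusted p = 0.0139), for Map1b, a microtubule protein, by 2.15 (0.00413), for Tm4sf5 by 2.06, for Cdh2 by 2.01 and for Trdn, the muscle protein triadin, by 1.90 (0.0189). In mTEChi, Ntm had 6.13 and 6.29 at 1 month and 7.38 and 8.97 at 6 months, and Map1b had 6.21 and 6.49 against 8.17 and 8.81. It fell for Cd163 (-3.99), S100g (-2.70), Pid1 (-2.63), Sval2 (-2.22) and Cpne4, a copine (-2.19). Cpne4 had 7.66 and 7.79 in mTEChi at 1 month and 5.44 and 5.19 at 6 months. Without 6-month mTEChi array 2, 3 of the 9 of these genes that were still tested were called.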

How the results depend on the processing

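The counts of genes called between mTEChi and DC, against each DC population and in the shared contrast stayed within 1.5 times under every alternative except a 4-fold threshold, where they were 1723 (both DC), 1838 (Sirpa-), 1737 (Sirpa+) and 600 (shared contrast), with 32 shared genes within 2-fold. Without single arrays they were 3873 to 4041, 4077 to 4239, 3840 to 3958 and 2449 to 2515, with 121 to 136 shared genes, 59 to 65 of them within 2-fold. The detected genes differed by 727.9 to 800.3 without single arrays, by 607.5 after quantile normalization and by 629.1 with equal array medians.

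Changes with age depended on single arrays: 17 to 2029 genes were called from 1 to 6 months, 0 to 3 from 1 to 3 months and 20 to 1774 by the F-test. From 1 to 3 months, against 1 gene, 0 were called with the mean of all probe sets, 4 after quantile normalization, 2 with only mTEChi and DC arrays and 4 with the RNA quality covariate. The F-test called 39 genes among those above the median in 6 arrays. The cause was not tested. Leaving out 1 of 2 arrays assumes that the lone array varies like the other groups.

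With the replicate number as a block, 160 genes were called from 1 to 6 months, against 104. The residuals of 45 pairs of same-numbered samples correlated from -0.0676 to 0.418, with 17 pairs over 0.1. The highest was between Sirpa- and Sirpa+ DC at 3 months. Whether same-numbered samples share an animal was not tested, and the main fit did not pair them.

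Of the named and listed genes, 2 changed sign with the mean of all probe sets, Ivl to 1.04 (from -0.01) and Mbp to 1.00 (from -0.55), because other probe sets of these genes differed in the opposite direction. In that setting 482 kept direction and call, 20 lost and 5 gained a call. With the array least favourable to each left out, 476 kept direction and call, 21 lost and 19 gained it, and under the block 516 did not change.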
